A study of Mus musculus with 12 samples.

Results

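The nuclear genes of oxidative phosphorylation were followed in blood stem and progenitor cells sorted from the livers of E13.5 mouse fetuses, with and without a Setdb1 mutation. Members were taken by gene symbol: Nduf genes of the a, b, c, s and v series for complex I, Sdha to Sdhd for complex II, Uqcr genes for complex III, Cox4 to Cox8 genes for complex IV and Atp5 genes for complex V. Assembly factors named Ndufaf and symbols ending in -ps were left out. This gave 84 of the 24054 genes in the tables, with 37 members in complex I, 4 in complex II, 8 in complex III, 18 in complex IV and 17 in complex V. A few known parts of the chain carry other symbols and stand outside the rule, among them Cyc1, Ndufab1 and Cycs. The rule also takes Atp5s and Atp5sl, which bear an Atp5 symbol but are not subunits of the ATP synthase.

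RNA was sequenced in 12 libraries, 3 each of LT-HSC mutants, LT-HSC controls, MPP mutants and MPP controls. LT-HSC are long-term haematopoietic stem cells, sorted here as LSK cells positive for CD150 and negative for CD48; MPP are multipotent progenitors, sorted as LSK cells negative for CD150 and positive for CD48. All mutants were Setdb1 p/p;vav-cre. Setdb1 +/p;vav-cre was the genotype of 3 controls (MPP control 3, LT-HSC control 2 and LT-HSC control 3), and Setdb1 +/p;+/+ that of the other 3 (both remaining MPP controls and LT-HSC control 1), so every library came from a fetus with at least 1 p allele and the mutants are compared with heterozygotes. What the p allele is was not given in the labels. The vav-cre transgene expresses Cre recombinase mainly in blood cells. About 500 to 1000 LT-HSC or 20000 MPP were sorted per sample, so cell type and the number of sorted cells cannot be told apart.

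Oxidative phosphorylation makes ATP in the inner mitochondrial membrane. Complexes I and II feed electrons from NADH and succinate into the chain, complex III passes them to cytochrome c, complex IV hands them to oxygen, and complex V, the ATP synthase, uses the proton gradient that the pumps build. Most of the subunits are encoded in the nucleus. Long-term stem cells of adult bone marrow are known for relying more on glycolysis than their progeny do. The cells here are fetal, and their use of glycolysis was not measured. Nuclear respiratory factor NRF1, the ETS factor GABPA and YY1 are textbook regulators of respiratory chain genes.

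Promoters of 5 members are shown, picked among the called members to give an example of each motif searched and of a window with no match: Ndufa4, Atp5g3 and Sdhb were among the members lower in LT-HSC controls than in MPP controls, and Uqcr11 and Ndufs7 among those higher in MPP mutants than in MPP controls. Each is the RefSeq window of GRCm38.p6 (250 bases before and 50 after the annotated start, 5′ to 3′ on the gene's strand), and capitals mark a match to a searched motif. Ndufa4 lies on the minus strand at chr6:11907401-11907700, Atp5g3 on the minus strand at chr2:73911277-73911576, and Sdhb on the plus strand at chr4:140961021-140961320. Uqcr11 lies on the minus strand at chr10:80406772-80407071, and Ndufs7 on the plus strand at chr10:80249199-80249498.
Ndufa4: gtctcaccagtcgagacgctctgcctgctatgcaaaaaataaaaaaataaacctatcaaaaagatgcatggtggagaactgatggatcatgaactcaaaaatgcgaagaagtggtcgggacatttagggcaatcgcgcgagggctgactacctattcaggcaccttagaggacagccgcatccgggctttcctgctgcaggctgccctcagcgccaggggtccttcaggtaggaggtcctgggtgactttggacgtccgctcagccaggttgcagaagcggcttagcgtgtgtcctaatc
Atp5g3: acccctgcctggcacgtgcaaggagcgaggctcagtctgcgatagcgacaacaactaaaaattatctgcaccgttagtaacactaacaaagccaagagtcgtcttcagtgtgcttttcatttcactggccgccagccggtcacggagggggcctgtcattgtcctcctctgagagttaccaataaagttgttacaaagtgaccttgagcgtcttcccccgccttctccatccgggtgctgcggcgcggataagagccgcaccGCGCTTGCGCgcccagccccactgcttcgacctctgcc
Sdhb: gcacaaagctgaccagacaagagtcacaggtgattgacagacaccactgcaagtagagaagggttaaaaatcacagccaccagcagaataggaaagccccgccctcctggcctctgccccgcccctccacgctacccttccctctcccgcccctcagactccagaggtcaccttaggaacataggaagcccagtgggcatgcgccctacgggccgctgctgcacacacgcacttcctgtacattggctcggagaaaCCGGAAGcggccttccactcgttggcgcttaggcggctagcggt
Uqcr11: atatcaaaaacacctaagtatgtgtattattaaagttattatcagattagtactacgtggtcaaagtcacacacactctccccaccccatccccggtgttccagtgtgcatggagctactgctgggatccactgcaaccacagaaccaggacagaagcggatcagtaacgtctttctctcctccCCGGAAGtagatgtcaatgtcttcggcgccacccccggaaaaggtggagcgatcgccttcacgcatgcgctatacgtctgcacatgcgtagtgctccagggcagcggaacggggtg
Ndufs7: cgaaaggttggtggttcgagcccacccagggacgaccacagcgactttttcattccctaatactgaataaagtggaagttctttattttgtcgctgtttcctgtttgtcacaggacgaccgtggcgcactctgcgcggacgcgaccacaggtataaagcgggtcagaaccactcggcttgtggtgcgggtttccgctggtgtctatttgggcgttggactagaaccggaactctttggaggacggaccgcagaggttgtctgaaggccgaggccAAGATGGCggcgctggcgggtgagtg

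The capitals are the NRF1 motif (GCGCA, any base, GCGC) in Atp5g3, the ETS motif CCGGAAG in Sdhb and Uqcr11, and the YY1 motif AANATGGC in Ndufs7; the Ndufa4 window held none of these, nor did those of Uqcrfs1 and Atp5g1, which also rose in MPP mutants and are not shown. All 3 motifs were searched on both strands, and a promoter could hold several. Of the 84 members, 69 had a promoter window. NRF1 matches were found in 17 of them (24.6%), against 7.21% of the 17899 genes of the tables with a window. ETS matches were found in 16 (23.2%), against 12.9%, and YY1 matches in 18 (26.1%), against 7.51%. At least 1 of the motifs was present for 44 members (63.8%), against 24.0% of all genes, at a similar median GC content of 57.3% and 56.7%. These are matches of letters in a window, not measured binding.

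Libraries held from 10119416 to 14113198 expected counts in total, and 1.56% to 1.86% of it fell on the members. Slamf1, which encodes CD150, stood at 34.6 to 41.5 CPM (the count as a share of the TMM-scaled library) in LT-HSC and at 1.08 to 2.41 CPM in MPP, while Cd48 stood at 10.6 to 30.6 CPM in LT-HSC and at 149 to 261 CPM in MPP, in the direction of the gates. Ly6a, which encodes the Sca-1 of the LSK gate, was low and uneven, at 24.1 to 94.3 CPM in LT-HSC mutants, 33.2 to 43.9 CPM in LT-HSC controls, 13.7 to 16.9 CPM in MPP mutants and 26.3 to 35.3 CPM in MPP controls, and Kit stood at 819 to 1087 CPM in all libraries. Setdb1 itself was present in every library, at 66.3 to 80.1 CPM in LT-HSC mutants, 73.4 to 108 CPM in LT-HSC controls, 86.6 to 117 CPM in MPP mutants and 87.9 to 141 CPM in MPP controls. The groups overlap, and a count over the whole gene does not check an allele that may remove only part of it. No label says that replicates come from separate animals, so the spread behind every p-value is that between these samples and may be technical. The LT-HSC mutants were the least alike of the groups: the chi-square per gene between pairs of replicates was 24.8, 34.2 and 47.2 there, and 5.01 to 19.2 elsewhere. In bulk RNA, fewer cells of a type and less RNA per cell cannot be told apart, and a CPM gives a share of the counted RNA, not an amount per cell.

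Levels between genes were compared per transcript length, in the deposited TPM (RSEM's estimate of transcripts as a share of all transcripts). Of the 84 members, 72 averaged over 100 TPM over the 12 libraries. The highest was Atp5b, the catalytic beta subunit of the ATP synthase, at 2102 TPM. In complex I the highest was Ndufa4, now counted by many as a complex IV subunit, at 1378 TPM. Complex IV was led by Cox4i1, the common isoform of its regulatory subunit 4, at 1359 TPM, and complex III by the small subunit Uqcr10 at 967 TPM. Complex II held the narrowest range: Sdhd, a membrane anchor, averaged 528 TPM and Sdhc, the other anchor, 320 TPM. Its catalytic pair, Sdha and the iron-sulphur subunit Sdhb, averaged 356 and 488 TPM. In complex I, 33 of 37 members averaged over 100 TPM. Ndufs5 was the lowest of complex I, at 24.9 TPM. It is among 8 members with fractional counts, where reads were shared with other genes, so its level is uncertain; the others are Atp5f1, Atp5j, Cox7c, Ndufa13, Ndufb11, Ndufs1 and Uqcrc2.

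**Figure D1:**
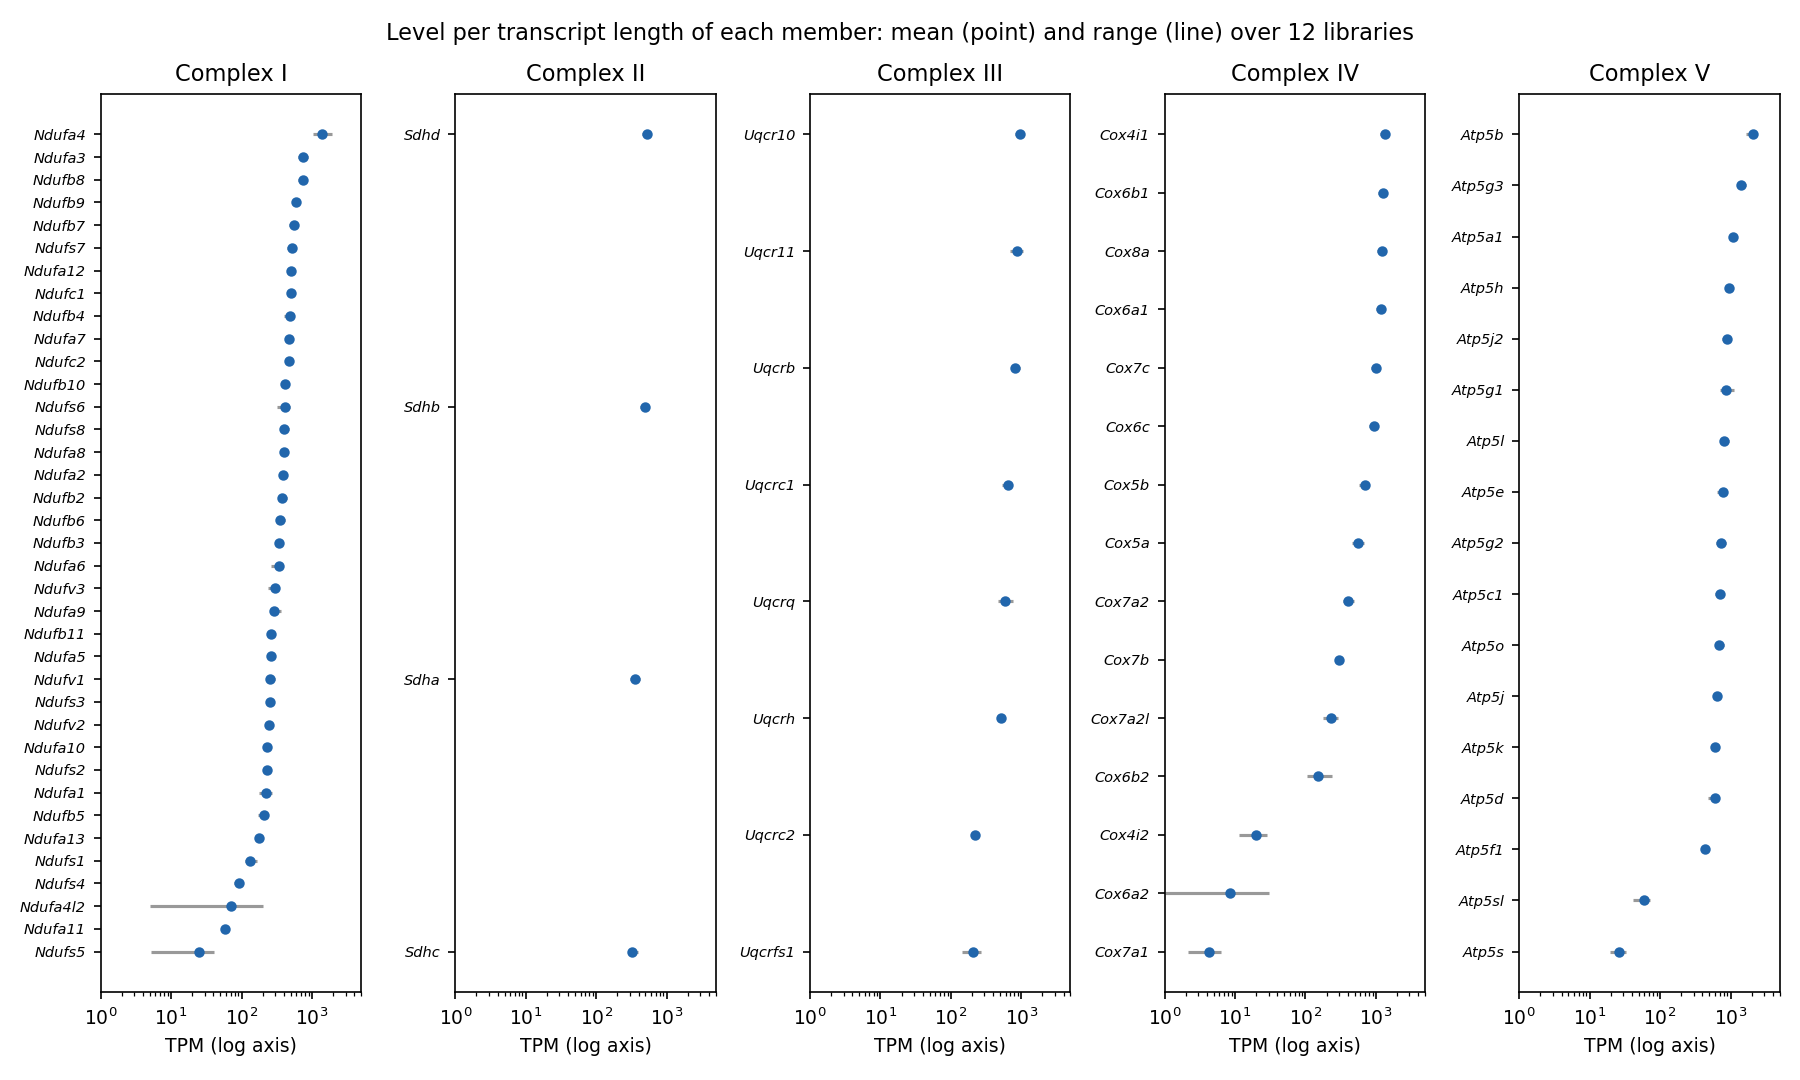
Mean level of each member in TPM on a log axis (point) with the range over the 12 libraries (line), by complex; members under a mean of 1 TPM are not drawn, and a line that reaches the left edge goes to under 1 TPM. Most members lie between 100 and 2102 TPM, and the isoforms Ndufa4l2, Cox4i2, Cox6a2 and Cox7a1 lie far below their partners with wide ranges.

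Of the tissue-restricted isoforms of complex IV, 4 were silent or nearly so. Cox8b and Cox8c, muscle and testis isoforms of subunit 8, had 0 counts in all 12 libraries, where 3 counts, the floor used here, correspond to 0.199 to 0.29 CPM. Cox7b2, a testis isoform, had 2 counts in all, and Cox7a1, the heart and muscle isoform, had 80. The common partners Cox8a, Cox7b and Cox7a2 averaged 1241, 301 and 407 TPM. Cox6b2, known as the testis isoform of subunit 6b, was the highest restricted isoform, at an average of 150 TPM beside 1250 TPM for Cox6b1. Cox4i2 averaged 20.1 TPM and Cox6a2, the heart and muscle isoform of subunit 6a, 8.59 TPM. The near-silent Cox8b, Cox8c, Cox7b2 and Cox7a1 did not pass the filter on low counts, which left 80 members to test. Cox6a2 was also left out in LT-HSC mutants against controls, which left 79. In the comparisons of cell types it cleared that filter through the MPP libraries alone.

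Summed over all members, the libraries held 14786, 17143 and 15744 CPM in LT-HSC mutants 1, 2 and 3, 14585, 15550 and 15431 CPM in LT-HSC controls, 19108, 20615 and 20214 CPM in MPP mutants, and 17812, 17627 and 18224 CPM in MPP controls. Every MPP mutant was above every MPP control, and every LT-HSC library was below every MPP library. LT-HSC mutants and controls overlapped, and LT-HSC mutant 2 was the highest LT-HSC library in the sum over all members and in complexes I to V. Complex I held 4201 ± 358 CPM in LT-HSC mutants, 3987 ± 222 in LT-HSC controls, 5390 ± 241 in MPP mutants and 4817 ± 110 in MPP controls (SD, n = 3 each). Complex V, the largest sum, held 6613 ± 400, 6268 ± 176, 8154 ± 320 and 7273 ± 196 CPM in the same order of groups. Complex III held 1596 ± 121, 1516 ± 55.9, 1995 ± 86.0 and 1670 ± 52.7 CPM, and complex IV 2188 ± 200, 2133 ± 95.9, 2900 ± 135 and 2578 ± 99.4 CPM. Complex II alone showed no gap between MPP groups, at 1292 ± 122, 1285 ± 25.1, 1541 ± 35.5 and 1549 ± 127 CPM. The deposited TPM is scaled by transcript length and, unlike the CPM, carries no TMM scaling. The TMM factors were 0.9029 to 0.9424 in MPP mutants and 0.9686 to 0.9854 in MPP controls. In TPM the sum over all members was 41302 ± 2184 in LT-HSC mutants, 40621 ± 1035 in LT-HSC controls, 45534 ± 474 in MPP mutants and 44365 ± 771 in MPP controls (SD, n = 3 each). The MPP mutant and MPP control libraries then overlapped, and the part of either scaling in this was not tested. On that scale complex III alone kept them apart, at 5203 to 5303 TPM in MPP mutants and 4657 to 4910 TPM in MPP controls.

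**Figure D2:**
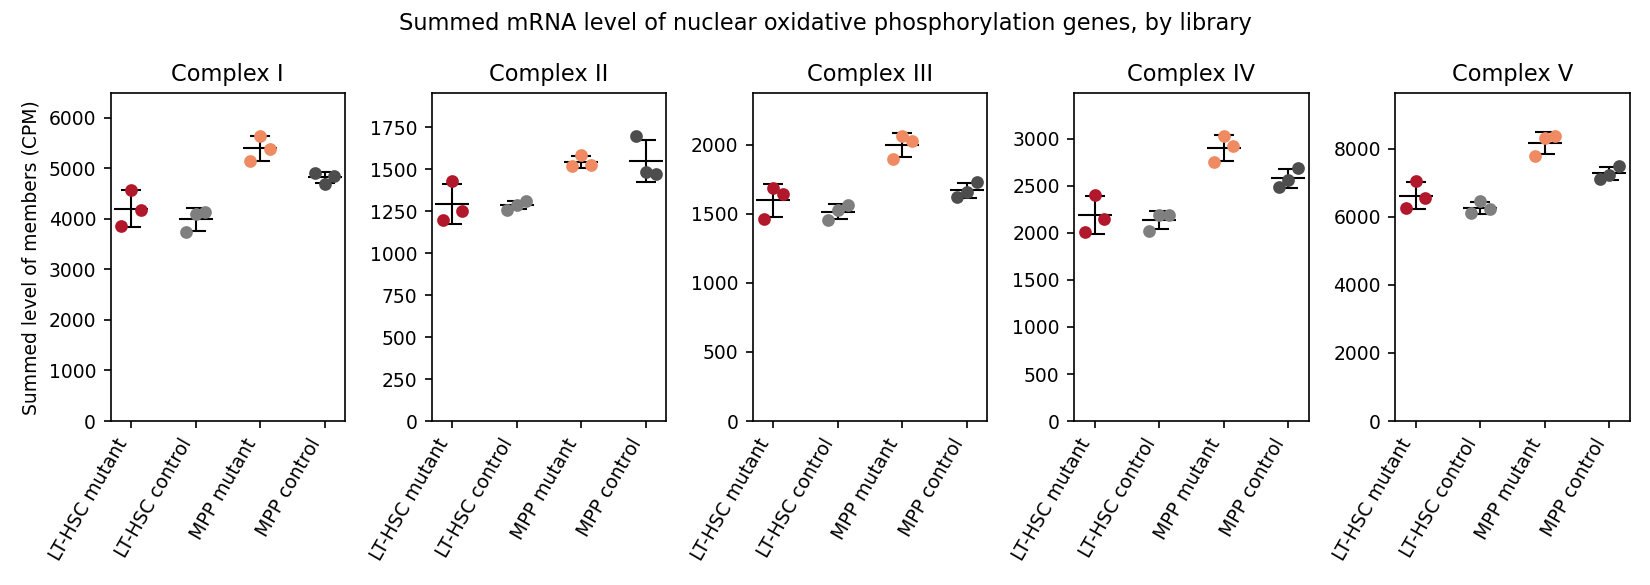
Summed level of the members of each complex in CPM, by library (points), with the mean and SD of the 3 libraries of a group (bar and whiskers). In complexes I, III, IV and V the 3 MPP mutants lie above the 3 MPP controls; in complex II they do not, and the LT-HSC groups overlap in every complex.

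The first comparison asked what the Setdb1 mutation changes among these genes in MPP. Rises prevailed: 17 of the 80 tested members were higher in MPP mutants than in MPP controls (21.2%), where 16.5% of all 12392 tested genes were higher, and 3 were lower (3.75%), where 18.5% of all genes were lower and 35% changed either way (edgeR's quasi-likelihood test, adjusted p under 0.05). Unadjusted, 32 members had a p under 0.05 (45.4% of all genes did). The share of members called higher was thus near that of all genes, and the share called lower was below it. The median log2 fold change of the members was 0.13 and that of all genes -0.01, and 65 of 80 members were above 0, against 48.8% of all genes. For 44 members all mutants were above all controls and for 8 all were below, where 25.4% and 25% of all genes did so. Complex I gave 11 of the rises, complex III 3, complex V 2, complex IV 1 and complex II none.

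Ndufa4l2, a paralogue of Ndufa4 known as a target of hypoxia-inducible factor, changed most. It lies at chr10:127509274-127517154 (GRCm38), and stood at 57.8, 114 and 97.2 CPM in MPP mutants 1, 2 and 3, against 10.1, 13.3 and 6.2 CPM in MPP controls. Every mutant was far above every control; the fitted level was 8.98-fold higher, a log2 fold change of 3.17 (SE 0.281, adjusted p = 1.7e-05). Its exons share 32 of 1095 bases (2.92%) with Shmt2 on the opposite strand, which the libraries do not separate; Shmt2 rose by 0.34 on the log2 scale (adjusted p = 0.016). Ndufa4 itself stood at 337, 342 and 323 CPM in MPP mutants, against 399, 353 and 374 CPM in MPP controls, a log2 fold change of -0.18 that did not pass (adjusted p = 0.106). Of the summed TPM of this pair, Ndufa4l2 made up 6.64%, 12.1% and 11% in MPP mutants and 1.02%, 1.53% and 0.682% in MPP controls.

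Complex III carried the largest rises among the common subunits. Uqcrq, a small subunit, stood at 160, 179 and 169 CPM in MPP mutants, against 103, 111 and 127 CPM in MPP controls, with a log2 fold change of 0.57 (SE 0.0969, adjusted p = 0.00112). Uqcrfs1, the Rieske iron-sulphur protein, stood at 181, 198 and 215 CPM in MPP mutants, against 106, 144 and 152 CPM in MPP controls, a log2 fold change of 0.55 (SE 0.129, adjusted p = 0.00703). Uqcr11, the smallest subunit of the complex, stood at 189, 199 and 200 CPM in MPP mutants, against 147, 142 and 152 CPM in MPP controls, a log2 fold change of 0.40 (SE 0.0802, adjusted p = 0.0028). In all 3 genes the groups did not overlap. The core proteins Uqcrc1 and Uqcrc2 had log2 fold changes of 0.19 and 0.14 and did not pass (adjusted p = 0.0953 and 0.235).

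In complex I the rises were small and spread over its parts. Of the 7 core subunits, which hold the flavin and the iron-sulphur clusters, 3 rose: Ndufs7 by a log2 fold change of 0.33 (adjusted p = 0.0145), Ndufs3 by 0.29 (adjusted p = 0.0244) and Ndufv1 by 0.29 (adjusted p = 0.0278). Ndufs7 stood at 215, 239 and 235 CPM in MPP mutants, against 167, 188 and 188 CPM in MPP controls. Of the 28 accessory subunits, 7 rose, by log2 fold changes of 0.26 to 0.34, with Ndufb2 the highest (86.7, 87.6 and 85.2 CPM in MPP mutants, against 59.9, 71.9 and 71.7 CPM in MPP controls; adjusted p = 0.0202, and 0.147 with a correction for transcript length). None of the 37 members of complex I fell. In complex II, Sdha, Sdhb, Sdhc and Sdhd had log2 fold changes of -0.15, 0.11, -0.06 and 0.10, and none passed (adjusted p = 0.196 to 0.671).

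Complex IV held 2 of the 3 falls, and both were in tissue-restricted isoforms. Cox6a2 stood at 3.48, 2.26 and 2.44 CPM in MPP mutants, against 9.33, 7.82 and 6.95 CPM in MPP controls, a log2 fold change of -1.57 (SE 0.235, adjusted p = 0.00045). Its exons share 70 of 680 bases (10.3%) with Itgad on the opposite strand, which stood at 0.183 to 1.32 CPM in MPP. Cox4i2, the isoform of subunit 4 known from lung and from low oxygen, stood at 5.68, 5.7 and 5.99 CPM in MPP mutants, against 9.87, 7.9 and 8.93 CPM in MPP controls, a log2 fold change of -0.64 (SE 0.175, adjusted p = 0.0161). Their common partners Cox6a1 and Cox4i1 had log2 fold changes of 0.28 and 0.13 and did not pass (adjusted p = 0.0582 and 0.24). Cox7a2 was the only complex IV member that rose, with a log2 fold change of 0.26 (adjusted p = 0.0446; 0.139 with a correction for transcript length), at 169, 200 and 184 CPM in MPP mutants, against 159, 149 and 151 CPM in MPP controls. Cox7a2l, a supercomplex factor that carries a Cox7 symbol, stood at 118, 129 and 113 CPM in MPP mutants, against 153, 134 and 135 CPM in MPP controls, without overlap but with a log2 fold change of -0.25 that did not pass (adjusted p = 0.0582). Cox6b2 had nearly equal values, at 25, 23.5 and 25 CPM in MPP mutants and 24.4, 24.3 and 24.1 CPM in MPP controls.

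In complex V, Atp5g1, which encodes the c subunit of the membrane ring, stood at 414, 496 and 481 CPM in MPP mutants, against 391, 345 and 341 CPM in MPP controls, and rose by a log2 fold change of 0.35 (SE 0.0948, adjusted p = 0.0143). Atp5g2 and Atp5g3 encode the same mature protein; their log2 fold changes were -0.11 and 0.19 (adjusted p = 0.306 and 0.0985). Of the summed TPM of these 3 genes, Atp5g2 made up 22.5%, 19.7% and 20.9% in MPP mutants and 26.3%, 25.3% and 24.8% in MPP controls. Atp5b rose by a log2 fold change of 0.25 (adjusted p = 0.0484), at 2378, 2545 and 2630 CPM in MPP mutants, against 1811, 2161 and 2298 CPM in MPP controls. Atp5sl, an assembly protein rather than a subunit, fell by 0.44 on the log2 scale (SE 0.104, adjusted p = 0.00772), at 46.3, 41 and 40.6 CPM in MPP mutants, against 59.9, 54.3 and 57.1 CPM in MPP controls.

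These counts depended on the libraries. Without MPP control 2 there were 6 rises, and without MPP mutant 2 or without MPP mutant 3 there were 4 in each case. All genes called higher were then 12.6%, 10.1% and 10.4%, above the members' shares, and the members' median was 0.127, 0.114 and 0.13. With MPP control 3 alone, the only MPP control that carries vav-cre, no member passed in either direction, in a fit that called 125 of all 13908 genes and gave a members' median of 0.062. Upper-quartile scaling gave 7 members higher and 5 lower, where 13.1% of all genes were higher and 21.9% lower. A correction for transcript length gave 11 higher and 5 lower, where 17.6% of all genes were higher and 17.6% lower. The shares of all genes were above the members' shares in each case. Ndufa4l2, Uqcrq, Uqcrfs1, Cox6a2 and Atp5sl passed in every setting tried except the fit with Cre-positive controls alone.

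Markers of other blood and liver cells also differed between the MPP groups. Erythroid markers, such as Klf1 and globins, were higher in mutants for 16 of 18 genes, with a sum of 6288 to 9570 CPM in MPP mutants and 2040 to 3789 CPM in MPP controls. Macrophage markers were lower for 12 of 13 genes, with a sum of 354 to 492 CPM in MPP mutants and 1553 to 2225 CPM in MPP controls. Hepatoblast markers were lower for 7 of 13 tested genes, with a sum of 95.7 to 131 CPM in MPP mutants and 277 to 582 CPM in MPP controls, and Serpina1a was at 0 in MPP control 2. HSC markers were lower for 3 of 7 tested genes (361 to 455 CPM in MPP mutants, 579 to 710 CPM in MPP controls), and the MPP markers Cd48, Flt3 and Cd34 were all lower (1082 to 1353 CPM in MPP mutants, 1691 to 1767 CPM in MPP controls). Endothelial markers (95.9 to 140 CPM in MPP mutants, 147 to 149 CPM in MPP controls) had 1 higher and 3 lower of 6, with Lyve1 at 0 in MPP control 3. Stromal markers stayed at 27.7 to 46.8 CPM in MPP mutants and 39.0 to 53.0 CPM in MPP controls, with Des at 0 in all of them. The part of these shifts in the members' changes was not tested.

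**Figure D3:**
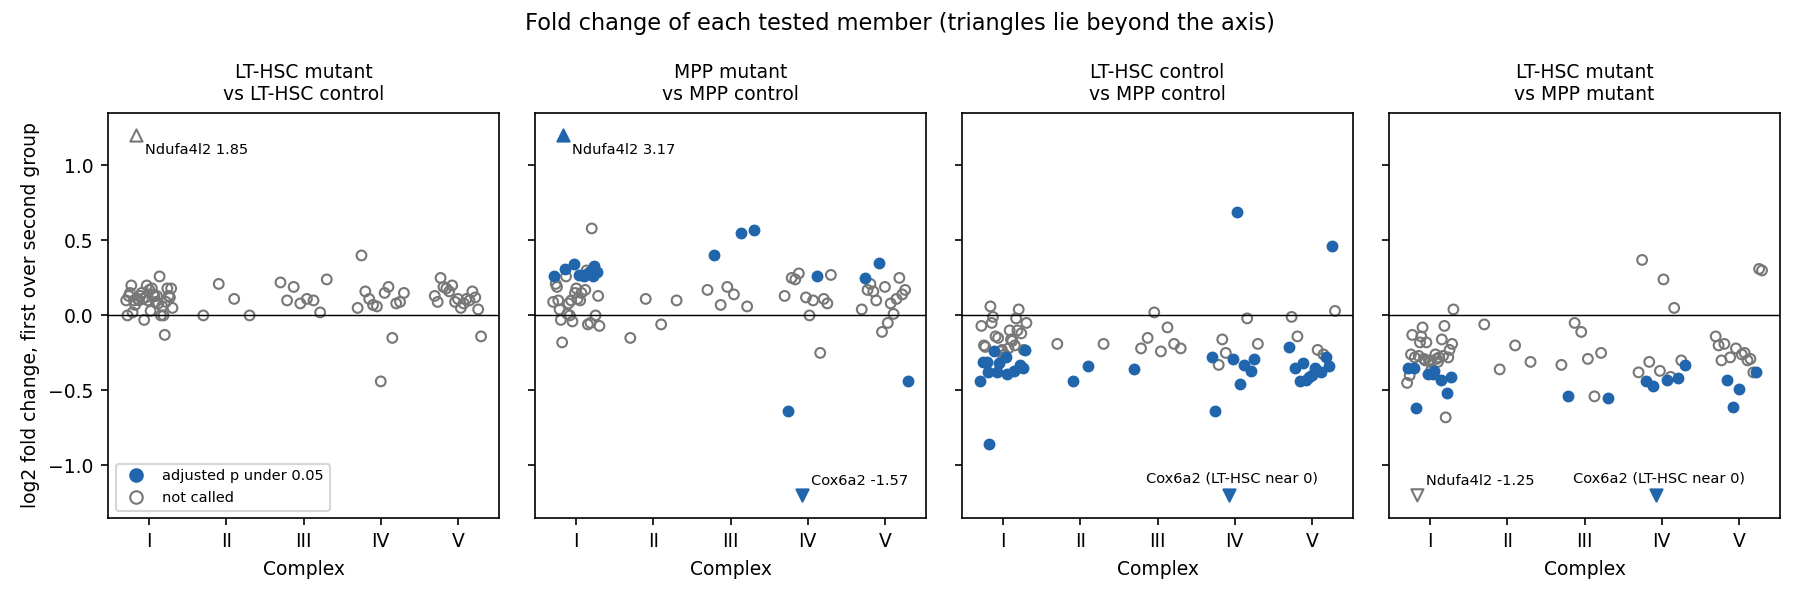
Log2 fold change of each tested member (first over second group named above each panel), by complex; filled points passed an adjusted p under 0.05, and triangles lie beyond the axis. Members lean upwards in MPP mutants against MPP controls and downwards in LT-HSC against MPP in both genotypes, and no point is filled in LT-HSC mutants against LT-HSC controls.

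The same question gave no call in LT-HSC. Of 79 tested members, 0 were higher and 0 lower in LT-HSC mutants than in LT-HSC controls (edgeR's quasi-likelihood test; 0.257% of all 12847 genes were higher and 0.163% lower, 0.42% together). Unadjusted, 2 members had a p under 0.05 (9.5% of all genes did), and DESeq2 also called 0. The median log2 fold change was 0.11 for the members and 0.03 for all genes, and 70 of 79 members were above 0, against 54.9% of all genes. Without each library in turn, the members' median moved between 0.01 and 0.17. For 5 members all mutants were above all controls and for 2 all were below, where 6.55% and 9.76% of all genes did so.

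The 10 members with the smallest p in LT-HSC are given as values only. Cox6b2 stood at 28.5, 26 and 29.3 CPM in LT-HSC mutants, against 37, 36.9 and 42.9 CPM in LT-HSC controls; the groups did not overlap, but the log2 fold change of -0.44 (SE 0.138) did not pass (adjusted p = 0.373). Ndufs1, the largest core subunit of complex I, stood at 175, 201 and 203 CPM in LT-HSC mutants, against 166, 164 and 170 CPM in LT-HSC controls, a log2 fold change of 0.26 (adjusted p = 0.494). Atp5c1, the gamma subunit of the rotary shaft, stood at 384, 445 and 383 CPM in LT-HSC mutants, against 335, 374 and 345 CPM in LT-HSC controls, a log2 fold change of 0.25 (adjusted p = 0.539). In Ndufs1 and Atp5c1, too, every mutant was above every control. Atp5d, Ndufv2, Sdhb, Ndufb2, Ndufs7 and Ndufa13 had log2 fold changes of 0.18 to 0.21 (adjusted p = 0.619 to 0.666).

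Ndufa4l2 was the most uneven member in LT-HSC. Its values were 25, 2.41 and 79.9 CPM in LT-HSC mutants 1, 2 and 3, against 14.4, 7.36 and 8.87 CPM in LT-HSC controls. Mutants 1 and 3 were above all controls and mutant 2 was below them all, so the log2 fold change of 1.85 had an SE of 0.94 and did not pass (adjusted p = 0.593). The share of Ndufa4l2 in its pair's TPM was 5.07%, 0.422% and 14.1% in LT-HSC mutants and 2.9%, 1.45% and 1.71% in LT-HSC controls. The erythroid sum in the same libraries was 4963, 4071 and 6999 CPM in LT-HSC mutants and 4019, 7004 and 4741 CPM in LT-HSC controls, with 1 of 18 markers higher. Hepatoblast markers summed to 66.7 to 463 CPM in LT-HSC mutants and 526 to 1773 CPM in LT-HSC controls, with Fga and Fgb at 0 in LT-HSC mutant 3. Macrophage markers summed to 570 to 1388 CPM in LT-HSC mutants and 1224 to 1559 CPM in LT-HSC controls; none of the 14 and 13 genes of these lists passed. HSC markers summed to 1177 to 1694 CPM in LT-HSC mutants and 1721 to 1943 CPM in LT-HSC controls, and none of 8 passed. Of the 3 MPP markers 1 was lower; Flt3, a cytokine receptor among them, stood at 52.3 to 77.5 CPM in LT-HSC mutants and 133 to 149 CPM in LT-HSC controls. The part of these lists in the values was not tested.

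The difference between the genotype effects in LT-HSC and in MPP was tested as an interaction over all 12 libraries. None of 80 members passed in either direction (0.377% of all 13249 genes did), 5 had an unadjusted p under 0.05 (12.4% of all genes), and DESeq2 called 0. The difference was above 0 for 22 members, against 48.5% of all genes. So no member is shown to respond differently in the 2 cell types. The smallest p belonged to Cox6b2, with a difference of log2 fold changes, LT-HSC minus MPP, of -0.50 (SE 0.156, adjusted p = 0.2), followed by Ndufa10 (-0.33), Ndufs3 (-0.29), Cox4i2 (0.97), Uqcr11 (-0.37) and Uqcrq (-0.39), with adjusted p = 0.329 to 0.416. Without LT-HSC mutant 3, Cox4i2 passed (adjusted p = 0.0229), in a fit that called 885 of all 13513 genes, 2.58% higher and 3.97% lower. Cox4i2 stood at 8.96, 9.27 and 3.65 CPM in LT-HSC mutants 1, 2 and 3, against 4.58, 6.7 and 5.71 CPM in LT-HSC controls. For Ndufa4l2 the difference was -1.37 (SE 1.09, adjusted p = 0.691).

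**Figure D4:**
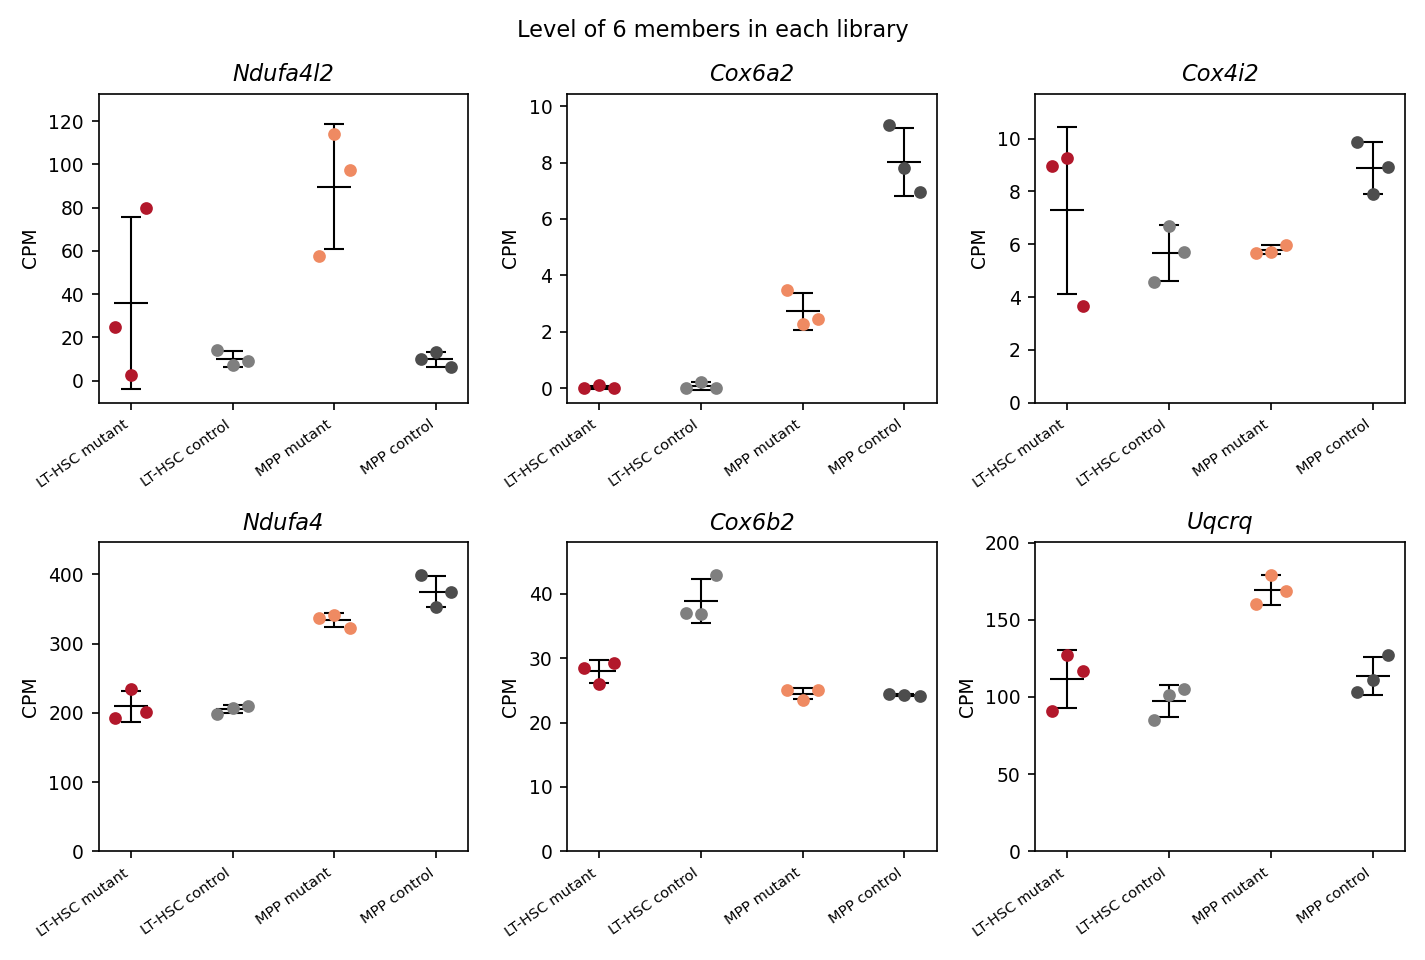
Level of 6 members in CPM in each library (points), with the mean and SD of the 3 libraries of a group (bar and whiskers). Ndufa4l2 is high in the MPP mutants and uneven in the LT-HSC mutants, Cox6a2 is near 0 in LT-HSC, and Ndufa4 is lower in LT-HSC than in MPP in both genotypes.

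The next comparison set control stem cells against control progenitors. Members were lower in LT-HSC: 36 of 80 (45%) were lower in LT-HSC controls than in MPP controls, where 18% of all 12834 tested genes were lower, and 2 (2.5%) were higher, where 20.5% of all genes were and 38.5% changed either way (edgeR's quasi-likelihood test, adjusted p under 0.05). The median log2 fold change was -0.24 for the members and 0.01 for all genes, and 6 of 80 members were above 0, against 50.9% of all genes. Unadjusted, 51 members had a p under 0.05 (48.2% of all genes did). For 52 members all LT-HSC controls were below all MPP controls (24.8% of all genes), and for 2 they were above (26.3% of all genes). The falls numbered 14 in complex I, 2 in complex II, 1 in complex III, 8 in complex IV and 11 in complex V. The MPP controls are the same 3 libraries that stood as controls for the MPP mutants, so the 2 comparisons are not independent.

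Among the complex I symbols, Ndufa4 differed most, at 199, 207 and 210 CPM in LT-HSC controls, against 399, 353 and 374 CPM in MPP controls, a log2 fold change of -0.86 (SE 0.0826, adjusted p = 4.87e-05). For its paralogue Ndufa4l2 the log2 fold change was 0.06 (adjusted p = 0.89). The accessory subunits Ndufb7 and Ndufa3 fell by 0.39 and 0.38 on the log2 scale (adjusted p = 0.00903 and 0.00862), but with a correction for transcript length both calls ended, at -0.20 for Ndufb7 and -0.03 for Ndufa3 (adjusted p = 0.0757 and 0.787). Ndufb7 had 94.5, 111 and 111 CPM in LT-HSC controls, against 135, 137 and 144 CPM in MPP controls. Of the 7 core subunits 3 fell, Ndufs1 by 0.37, Ndufs8 by 0.35 and Ndufv2 by 0.23 on the log2 scale (adjusted p = 0.0152, 0.0143 and 0.0443).

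In complex II, Sdhb had 210, 220 and 227 CPM in LT-HSC controls, against 311, 298 and 290 CPM in MPP controls, a log2 fold change of -0.44 (SE 0.0783, adjusted p = 0.00182). Sdhc fell by 0.34 on the log2 scale (adjusted p = 0.0199), and Sdha and Sdhd, both at -0.19, did not pass (adjusted p = 0.104 each). For all 4 genes every LT-HSC control was below every MPP control. In complex III only Uqcr10 fell, with a log2 fold change of -0.36 (adjusted p = 0.0144), at 124, 133 and 150 CPM in LT-HSC controls, against 176, 165 and 186 CPM in MPP controls; with the length correction it was -0.11 (adjusted p = 0.315).

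In complex IV, Cox6a2 was near 0 in stem cells. It had 0, 0.221 and 0 CPM in LT-HSC controls, which is 3 counts in all, against 9.33, 7.82 and 6.95 CPM in MPP controls. The LT-HSC control level was 0.888% of the MPP control level, with an exact 95% interval of 0.182% to 2.62% for counting error only. Cox6c, a small subunit, had 149, 166 and 155 CPM in LT-HSC controls, against 226, 210 and 216 CPM in MPP controls, a log2 fold change of -0.46 (SE 0.0837, adjusted p = 0.00209), and Cox7b fell by 0.37 on the log2 scale (adjusted p = 0.00529). Cox6b2 went the other way, at 37, 36.9 and 42.9 CPM in LT-HSC controls, against 24.4, 24.3 and 24.1 CPM in MPP controls, a log2 fold change of 0.69 (SE 0.123, adjusted p = 0.00184). It made up 16%, 14.7% and 15.3% of the TPM of the Cox6b pair in LT-HSC controls, against 7.93%, 8.93% and 8.49% in MPP controls, while Cox6b1 fell by 0.29 on the log2 scale (adjusted p = 0.0352). Cox4i2 and Cox4i1 fell by 0.64 and 0.28 on the log2 scale (adjusted p = 0.044 and 0.0253).

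All 3 genes of the c subunit of ATP synthase fell in LT-HSC. Atp5g3, the most abundant of them, had 358, 381 and 375 CPM in LT-HSC controls, against 462, 493 and 524 CPM in MPP controls, a log2 fold change of -0.40 (SE 0.0809, adjusted p = 0.00387). Atp5g1 and Atp5g2 fell by 0.43 and 0.41 on the log2 scale (adjusted p = 0.00388 and 0.00488), and the share of each of the 3 in their summed TPM overlapped between the groups. Atp5e, the epsilon subunit of the shaft, fell by 0.44 on the log2 scale (adjusted p = 0.0047), at 87.5, 99.7 and 102 CPM in LT-HSC controls, against 129, 128 and 137 CPM in MPP controls; with the length correction it was -0.16 (adjusted p = 0.143). Of the 4 peripheral stalk genes 3 fell, and of the 3 small membrane subunits 2 did. Atp5b, the most abundant member, had a log2 fold change of -0.01 (SE 0.0922, adjusted p = 0.933), with overlapping groups, at 2034, 2133 and 2012 CPM in LT-HSC controls, against 1811, 2161 and 2298 CPM in MPP controls. Atp5s, not a subunit, rose by 0.46 on the log2 scale (adjusted p = 0.0299).

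The number of falls was 12 without LT-HSC control 1, where 12.7% of all genes were lower and the members' median was -0.194. With a correction for transcript length it was 24 of 80, where 19.4% of all genes were lower. Cre-positive controls alone leave 1 MPP control, and the members' median was then -0.303, against -0.045 for all genes. Ndufa4, Sdhb, Cox6a2, Cox6b2, Cox7b, Atp5g1 and Atp5g3 passed in every setting tried outside that fit. Of these, Cox6a2 cleared the filter on low counts through the MPP controls alone. HSC markers were higher in LT-HSC controls for 8 of 8 genes (1721 to 1943 CPM in LT-HSC controls, 579 to 710 CPM in MPP controls) and MPP markers lower for 3 of 3. Erythroid markers were higher for 11 of 18 genes (4019 to 7004 CPM in LT-HSC controls, 2040 to 3789 CPM in MPP controls) and hepatoblast markers for 13 of 14, with 1 lower (526 to 1773 CPM in LT-HSC controls, 277 to 582 CPM in MPP controls). Macrophage markers were higher for 7 and lower for 3 of 13 (1224 to 1559 CPM in LT-HSC controls, 1553 to 2225 CPM in MPP controls), and endothelial markers were higher for 3 of 5 (325 to 357 CPM in LT-HSC controls, 147 to 149 CPM in MPP controls). The part of these markers in the members' differences was not tested.

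The cell types were also compared within the mutants, on 6 libraries that the previous comparison did not use. Of 80 members, 21 (26.2%) were lower in LT-HSC mutants than in MPP mutants, where 7.98% of all 12452 genes were lower, and none was higher, where 14.9% of all genes were (22.8% changed either way; edgeR's quasi-likelihood test). Unadjusted, 49 members had a p under 0.05 (39.2% of all genes did). The median log2 fold change was -0.30 for the members and -0.004 for all genes, and 6 members were above 0, against 49.7% of all genes. For 65 members every LT-HSC mutant was below every MPP mutant (25% of all genes), and for 2 every one was above (22.1% of all genes). Lower in both genotypes were 13 members, which is 36.1% of the 36 falls among controls and 61.9% of the 21 among mutants. Over all genes, 726 were lower in both, 31.4% of the 2314 lower among controls and 73% of the 994 among mutants. Ndufa4 stood at 192, 235 and 201 CPM in LT-HSC mutants, against 337, 342 and 323 CPM in MPP mutants, a log2 fold change of -0.62 (SE 0.108, adjusted p = 0.0102). Atp5g1 and Atp5g3 fell by 0.61 and 0.49 on the log2 scale (adjusted p = 0.0241 and 0.0193), and Cox6a1 and Cox5a by 0.47 and 0.44 (adjusted p = 0.0175 and 0.0325).

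In complex III, Uqcrq stood at 91, 127 and 117 CPM in LT-HSC mutants, against 160, 179 and 169 CPM in MPP mutants, a log2 fold change of -0.55 (SE 0.146, adjusted p = 0.0361), and Uqcr11 had -0.54 (SE 0.148, adjusted p = 0.0408). The MPP mutants behind these values are those of the comparison with MPP controls, so this is not separate evidence. With the length correction Uqcrq was at -0.28 and Uqcr11 at -0.21 (adjusted p = 0.117 and 0.249), and both calls ended when any MPP mutant was left out, with log2 fold changes of -0.53 to -0.59. In complex I, Ndufv1, the flavin-binding core subunit, fell by 0.41 on the log2 scale (adjusted p = 0.0299) and Ndufb2 by 0.39 (adjusted p = 0.0295), but Ndufb2 was at -0.08 with the length correction (adjusted p = 0.535). Cox6a1, Cox5a and Atp5e also lost their calls under that correction (adjusted p = 0.0792, 0.0739 and 0.552). Cox6a2 had 1 count in the 3 LT-HSC mutants, 1.02% of the MPP mutant level (exact 95% interval 0.0254% to 5.8%, counting error only). The 4 Sdh genes had log2 fold changes of -0.06 to -0.36 and did not pass. The count of falls was unstable: it was 5 without LT-HSC mutant 1, 50 without LT-HSC mutant 2, 4 without MPP mutant 1 and 1 without MPP mutant 2 or 3, and 60 in a fit of all 12 libraries. The share of all genes called lower moved too: it was 3.25% without LT-HSC mutant 1, 13.2% without LT-HSC mutant 2, 2.86% without MPP mutant 1, at most 1.22% without MPP mutant 2 or 3 and 17.7% in the fit of all libraries, while the members' median stayed between -0.39 and -0.21 with a library left out. Of the 11 named calls, Cox6a2 alone passed in every setting tried, but it cleared the filter on low counts through the MPP mutants alone. Of the erythroid markers 2 of 18 were lower in LT-HSC mutants (4071 to 6999 CPM in LT-HSC mutants, 6288 to 9570 CPM in MPP mutants), of the macrophage markers 1 of 12 was higher (570 to 1388 CPM in LT-HSC mutants, 354 to 492 CPM in MPP mutants) and of the hepatoblast markers 1 of 13 was lower (66.7 to 463 CPM in LT-HSC mutants, 95.7 to 131 CPM in MPP mutants). Endothelial markers were higher for 4 of 6 and lower for 1 (251 to 366 CPM in LT-HSC mutants, 95.9 to 140 CPM in MPP mutants), HSC markers were higher for 8 of 8 and MPP markers lower for 3 of 3; the part of these lists was not tested.

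Most members are short transcripts, and transcript length moved with the results. Their median effective length was 495 bases, against 1950 for all genes, and 43 of the 84 were under 500 bases. In LT-HSC controls against MPP controls, all tested genes under 500 bases, members included, had a median log2 fold change of -0.24, close to -0.25 for the members of that length. Members of 500 to 1000 bases had a median of -0.30, where all genes of that length had -0.035, and those of 1000 to 2000 bases -0.20, where all genes had 0.04. In MPP mutants against MPP controls, members under 500 bases had a median of 0.15, as did all genes of that length. Members of 500 to 1000 bases had 0.13 and all genes of that length 0.09, a small gap that was not tested. Members of 1000 to 2000 bases had 0.13, where all genes had -0.01. The median SE of a single member's fold change was 0.0877 there, which is not the error of a median over a class. So under 500 bases the members' medians were close to those of short transcripts in general. With a correction for length, the members' median was -0.12 between control cell types and 0.07 between MPP genotypes, against -0.015 and 0.01 for all genes.

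**Figure D5:**
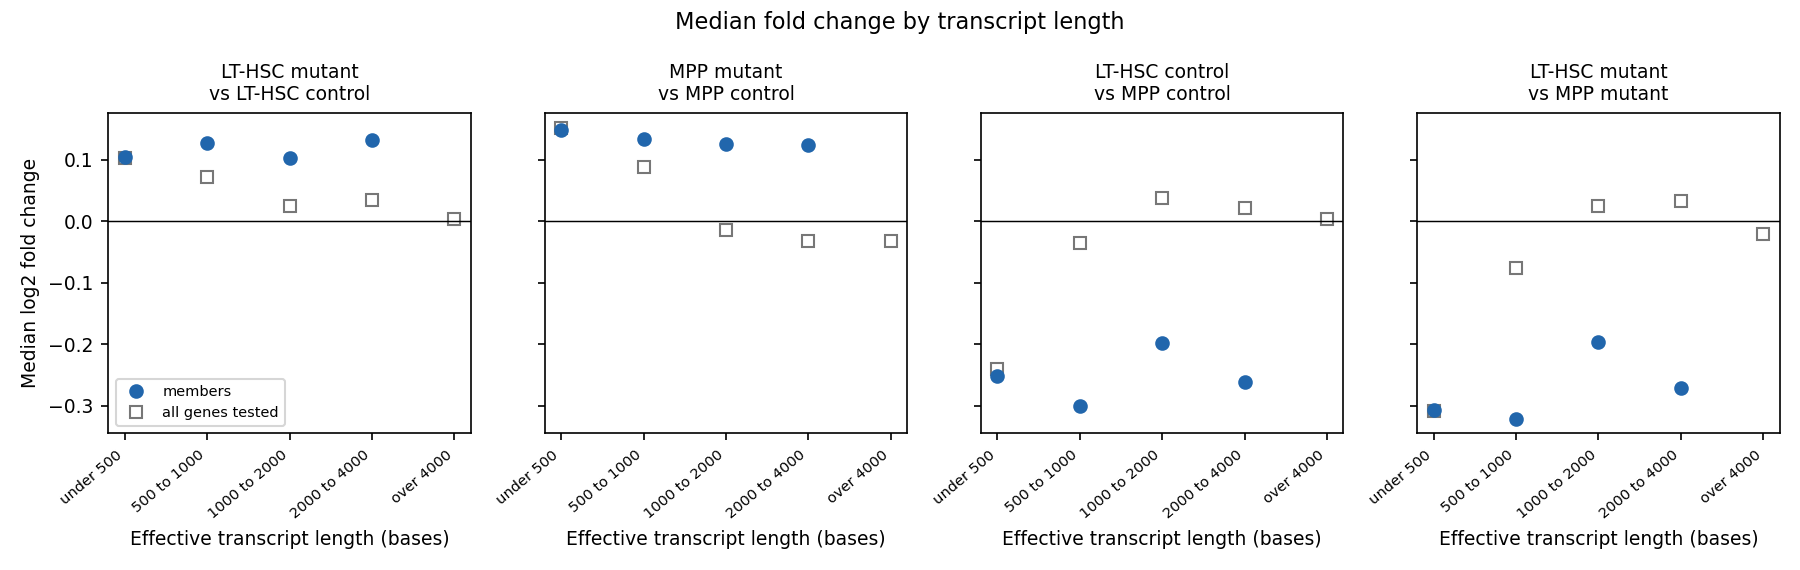
Median log2 fold change of the members (filled circles) and of all tested genes (open squares) by effective transcript length in bases, for 4 comparisons named above the panels. Circles and squares coincide under 500 bases, at -0.25 and -0.24 between control cell types, and separate in the longer classes; the longest class holds no member.

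Other mitochondrial genes were counted from lists kept outside the symbol rule, to be read against the 16.5% of all genes higher in MPP mutants. In MPP mutants against MPP controls, 11 of 43 tested assembly factors rose and none fell, led by the copper chaperone Cox17 (log2 fold change 0.85, adjusted p = 0.000156), the complex III factor Uqcc2 (0.64, adjusted p = 0.000249), the mitochondrial RNA-binding protein Lrpprc (0.51, adjusted p = 0.00175) and Cox11 (0.69, adjusted p = 0.00236). Of the 6 chain components with other symbols 4 rose, among them Cyc1, the cytochrome c1 of complex III (0.43, adjusted p = 0.0119), and Cycs, the cytochrome c that links complexes III and IV (0.39, adjusted p = 0.00658). Of 13 citric acid cycle genes 4 rose, led by Idh3a (0.74, adjusted p = 0.000404), and of 14 carriers and import genes 8 rose, led by the import channel Timm23 (0.60, adjusted p = 0.000477) and the chaperonin Hspe1 (0.63, adjusted p = 0.00065). Among 16 genes of mitochondrial genome expression and biogenesis, Pprc1 and Polrmt rose (0.29 and 0.36), which is 12.5% of that list, below the share of all genes. None of these lists had a call in LT-HSC mutants against LT-HSC controls.

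In LT-HSC controls against MPP controls the same lists held falls and no rise: 4 of 43 assembly factors, 3 of 6 other chain components, 7 of 13 citric acid cycle genes, 3 of 16 biogenesis genes and 6 of 14 carriers and import genes. With 18% of all genes lower, the assembly factors (9.3%) were below that share and the biogenesis genes (18.8%) near it. Cycs fell by 0.69 on the log2 scale (adjusted p = 0.000258), Fh1, the fumarase of the cycle, by 0.46 (adjusted p = 0.00431), and Esrra, a nuclear receptor that drives respiratory genes, by 0.84 (adjusted p = 0.00863). Yy1, a factor whose motif was searched above, fell by 0.48 (adjusted p = 0.0162). It was named after its value was seen, and its part in the members' falls was not tested. Over the 16 biogenesis genes the log2 fold changes ran from -0.84 to 0.81, and 6 were above 0. The ADP and ATP carrier Slc25a5 fell by 0.50 (adjusted p = 0.0027). In LT-HSC mutants against MPP mutants the falls numbered 3, 2, 2, 2 and 1 in the same order of lists, with no rise. The assembly factors (6.98%) and the carriers and import genes (7.14%) were near the 7.98% of all genes lower there.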

How the data were processed

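SMARTer cDNA of sorted fetal liver cells (a kit that is known not to mark strand) was sequenced in 12 libraries, 3 in each of 4 groups taken from the sample titles. The deposited values are RSEM expected counts (estimated reads per gene, 7.13% to 7.76% of values fractional), TPM scaled by effective length, and that length, per the file headers. STAR, RSEM and mm10 were used, per the submitters' processing notes; for neither tool is a version or setting given in the sources used here.

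Each expected count was rounded to a whole number, and tests were made with edgeR 4.0.16 (R 4.3.3; quasi-likelihood, TMM scaling, filterByExpr with a minimum count of 10 and total of 15) on the 6 libraries compared, or on 12 for the interaction, with Benjamini-Hochberg adjustment over all genes tested and a threshold of 0.05. The tests of genotype in each cell type and of the control cell types were also run on simulated counts with known changes. That simulation held no length trend and no deviant library, and it was not made for the mutant cell types or the interaction. Alternatives were other scalings, no filter, DESeq2 1.42.0, a lowess offset on transcript length (span 0.3), Cre-positive controls alone, each library left out, a replicate block, and a joint fit. CPM values use TMM-scaled library sizes. Totals of 10119416 to 14113198 counts put the floor of 3 counts at 0.199 to 0.29 CPM; intervals and floors cover counting error only.

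Same-numbered LT-HSC mutants and controls deviated together over 12501 genes (r = 0.125, 0.154 and 0.214), which by the preset limit of 0.1 pairs them; this rests on the data, not on a label. The block changed no member's call there (over all genes, 48 calls against 54).

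Genes named were, per comparison and complex, the called members with the smallest p (up to 4 higher and 3 lower), up to 10 by p where fewer than 10 were called, 6 for the interaction, the Sdh genes, isoform families, and extreme levels. Uqcrc1, Uqcrc2, Ndufv1 in MPP, Ndufs1, Ndufs8, Ndufv2 and Atp5b between control cell types, Shmt2, Itgad, Slc25a5 and Yy1 were named after their values were seen. Members and lists were chosen with earlier results of these data known. Promoter windows are from RefSeq.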

Additional observations from a re-analysis of the deposited data

How the results depend on the processing

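The share of all genes called in the same direction and setting is given in brackets, except for Cre-positive controls alone. In MPP mutants against controls, members called higher numbered 7 with upper-quartile scaling (13.1%), 11 with the transcript length offset (17.6%), 10 with the replicate block (14.4%) and 5 with block and length offset (15.7%). Members called lower numbered 5 with upper-quartile scaling (21.9%) and 5 with the length offset (17.6%). With Cre-positive controls alone, where the lone MPP control is assumed to vary like the other groups, both counts were 0. The median was 0.072 with upper-quartile scaling (-0.074 for all genes), 0.066 with the length offset, 0.062 with Cre-positive controls and 0.068 with block and length offset. Leaving out each library gave 4 to 21 members higher (10.1% to 18.9%). Between control cell types, members higher numbered 1 without the filter (15.2%) and 1 with DESeq2 (14%). They numbered 1 with block and length offset (18.5%) and 1 to 2 with a library left out (13.7% to 19.6%). Members lower numbered 19 with block and length offset (19.9%), 30 with the block alone (18.4%) and 12 to 39 with a library left out (12.2% to 17.9%). The median was -0.118 with the length offset and -0.113 with block and length offset (-0.015 and -0.017 for all genes). Between mutant cell types, members lower numbered 13 with upper-quartile scaling, 32 with DESeq2, 11 with the length offset, 60 in the joint fit and 1 to 50 with a library left out. Members higher numbered 1 with the length offset (13.8%), 1 with block and length offset (13.6%) and 0 to 2 with a library left out (3.35% to 20.2%). The members' median was -0.122 with the length offset, -0.125 with block and length offset and -0.392 to -0.212 with a library left out. The interaction median was 0.008 with Cre-positive controls, and 0 to 1 member was higher with a library left out (0% to 2.58%). The summed level of complex II in MPP mutants was 1490 CPM with upper-quartile scaling. Beyond the construction of each alternative (fewer libraries, another scaling), the cause was not tested. Over the genes named by smallest p, 704 values kept their direction and side of the threshold, 124 no longer passed, 1 newly passed and 0 reversed. The 704 include values of genes that passed neither in the main fit nor in the alternative. Numbers did not pair the samples in the other comparisons (r of same-numbered samples -0.268 to -0.018 between MPP groups, -0.305 to 0.08 between control cell types and -0.022 to 0.182 between mutant cell types), and there the replicate block describes a shared number only. Depth limits Cox6a2 in LT-HSC and the isoforms near 0 counts.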
